A study of Homo sapiens with 46 samples.

Results

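The genes described here encode the proteins of the mitochondrial ribosome. They were taken from the table of gene counts as every protein-coding gene whose symbol is MRPL or MRPS followed by a number and at most 1 letter, together with DAP3, which gave 79 of the 58735 genes listed. By symbol, 49 belong to the large subunit (MRPL) and 30 to the small subunit (29 MRPS genes and DAP3). The symbols do not follow the structure of the ribosome throughout: MRPS18A and MRPS30 encode proteins of the large subunit, and MRPS36 encodes a component of the 2-oxoglutarate dehydrogenase complex. All 79 members passed the filter on low counts, which left 20272 genes in the tests.

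The mitochondrial ribosome translates the mRNAs of mitochondrial DNA, all of which code for hydrophobic subunits of the respiratory chain and of the ATP synthase. Its RNAs are transcribed in mitochondria, whereas all of its proteins are encoded in the nucleus, made in the cytosol and imported. Some of these proteins descend from the bacterial ribosome, and others were added in the course of mitochondrial evolution.

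RNA was taken from HEK293T cells, an established human line from embryonic kidney that the methods name HEK293-Flp-In T-Rex, with the genotype label WT. Cells were exposed for 48 h to a chimera at 2 µM, delivered with EndoPorter. Each chimera joined a morpholino, an antisense oligomer directed at 1 mitochondrial mRNA, to pCox4, a mitochondrial targeting presequence. Control cells were given pCox4 in the click reaction buffer with no morpholino, so the control lacks an oligomer of unrelated sequence. The 11 treatments were directed at ND1, ND2, ND3, ND4L and ND5 (complex I), CYTB (complex III), COX1, COX2 and COX3 (complex IV), and ATP6 and ATP8 (complex V). The 46 libraries comprised 4 of the control and 4 of each treatment, except for 3 of ND2 (replicates 1, 3 and 4) and 3 of COX2 (replicates 2, 3 and 4). Replicates 1 and 2 formed batch 1, with 22 libraries, and replicates 3 and 4 formed batch 2, with 24 libraries, which the study's methods describe as different days and reagent batches. All libraries come from a single cell line, and the p-values measure the spread between its cultures.

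Total counts ran from 18876395 to 100698084 per library (median 23413171), and only COX3 replicate 4 exceeded 28121898. Of the 11 targeted mRNAs, MT-CO1, MT-CO3 and MT-CYB fell after their own chimera (log2 fold changes of -1.33, -0.49 and -0.33), MT-ND1, MT-ND2 and MT-ND3 rose (0.79, 1.02 and 0.80), and the other 5 were not called in the edgeR test. A chimera that blocks translation need not change the amount of its target, so these values check the labels only in part.

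Promoters of the members shared sequence elements. RefSeq promoters (250 bases before to 50 bases after the start, GRCh38.p14) were matched by symbol to 70 of the 79 members. The letters CCGGAAG, bound by ETS factors such as GABP, stood on either strand of 29 of these 70 promoters (41.4%), against 10.7% of all 27305 promoters and 20.3% of those of 9280 protein-coding genes with at least 4600 counts over all libraries. AAGATGGCG, the element of YY1, stood in 13 member promoters (18.6%), against 1.85% of all promoters and 4.26% of the expressed ones. GCGC followed by any base and TGCGC, the element of NRF1, stood in 8 (11.4%), near the 12.3% of expressed promoters. GGGCGG (SP1) stood in 61.4% of member promoters and 72.1% of expressed ones, CCAAT in 28.6% and 36.9%, CACGTG (E-box) in 8.57% and 10.3%, and TATAAA in 2.86% and 4.87%. The large and small subunits held CCGGAAG in 17 of 42 and 12 of 28 matched promoters. The last letters of CCGGAAG and the first of AAGATGGCG are the same, so that matches of these elements can overlap. Both strands were searched for every element, and a match describes the sequence and not a bound site. The table held no promoter for MRPL2, MRPL10, MRPL13, MRPL15, MRPL21, MRPL23, MRPL35, MRPS28 and MRPS36.

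Stretches before the RefSeq start are shown for MRPL24 and MRPS16, the members that edgeR called in the treatments, and for the 6 members of the highest control level whose stretch held an ETS or YY1 match. Each is a stretch of at most 80 bases from the longest part of the promoter outside annotated exons, 5′ to 3′ on the strand of the gene, with CCGGAAG or its complement in capitals.
MRPL24 (chr1:156741132-156741179, minus strand): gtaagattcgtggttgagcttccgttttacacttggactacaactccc
MRPS16 (chr10:73252694-73252773, minus strand): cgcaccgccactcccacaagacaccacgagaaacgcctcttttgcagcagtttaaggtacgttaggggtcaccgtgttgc
MRPS34 (chr16:1773156-1773206, minus strand): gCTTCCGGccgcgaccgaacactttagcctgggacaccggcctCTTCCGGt
MRPL3 (chr3:131502984-131503063, minus strand): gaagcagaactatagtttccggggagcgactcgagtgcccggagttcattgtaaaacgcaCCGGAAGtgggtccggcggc
MRPL58 (chr17:75012590-75012669, plus strand): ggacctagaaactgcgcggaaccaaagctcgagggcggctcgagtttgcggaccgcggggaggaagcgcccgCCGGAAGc
MRPL20 (chr1:1407314-1407393, minus strand): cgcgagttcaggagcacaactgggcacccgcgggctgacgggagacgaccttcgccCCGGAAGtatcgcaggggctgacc
MRPS10 (chr6:42217866-42217945, minus strand): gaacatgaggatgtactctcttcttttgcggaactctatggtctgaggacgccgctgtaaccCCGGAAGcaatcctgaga
MRPL47 (chr3:179604655-179604689, minus strand): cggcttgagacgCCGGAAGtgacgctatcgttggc
For MRPL58 that part held 2 ETS matches, of which the stretch shows 1. The stretches of MRPL24 and MRPS16 held none of the ETS, YY1 or NRF1 letters. In the whole window of 300 bases, MRPS16 held the ETS letters and MRPL24 did not. For MRPL24 the RefSeq start lies downstream of the GENCODE gene start. Its stretch therefore falls inside the gene as annotated (chr1:156737303-156741590), between exons. Sequence before the GENCODE start of MRPL24 was not searched.

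Levels of the members in control cells spanned more than 2 orders of magnitude. Per length, in reads per kilobase of exon scaled to library size (RPKM), the median over the 79 members was 21.6, against 4.90 over the 14825 protein-coding genes tested. The medians were 22.5 for the large and 16.5 for the small subunit. The highest levels were those of MRPS34, a small-subunit protein specific to mitochondria (109 ± 7.0 RPKM; SD, n = 4), MRPL14, a bacterial-type protein of the large subunit (96.5 ± 9.20), MRPS26 (95.5 ± 8.61), MRPL37 (82.4 ± 5.25) and MRPL3 (73.9 ± 3.09). The lowest were MRPS18C (3.42 ± 0.50), MRPS28 (3.05 ± 0.31), MRPL46 (2.55 ± 0.16), MRPL38 (1.56 ± 0.34) and MRPS24 (0.249 ± 0.11). Neighbours in this order mostly overlapped: only 7 of the 78 neighbouring pairs had no control library in common range. MRPS24 rested on 8 to 76 counts per library, so its fold changes are the least certain of all members.

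Several of the lowest members shared exons with another annotated gene. In GENCODE release 29, whose union of exons equals the gene length in the deposited table for all 58735 genes, 14 members shared at least 5% of their exon bases with another gene on the same strand. These 14 had a median of 9.20 RPKM, against 22.5 for the other 65, and held 7 of the 10 lowest places. MRPS24 shared 23.2% of its bases with the readthrough gene URGCP-MRPS24, which itself had 23 counts over all libraries. MRPL38 shared 37.5% with AC087289.3, MRPS28 35.8% with AC036214.3 and MRPL53 45.2% with CCDC142. Shared bases did not always go with a low level: MRPL12 shared 68.2% with AC139530.2 and ranked the seventh, at 64.8 ± 3.21 RPKM. How reads in shared stretches were assigned is not given in the sources used here, so the levels of these 14 members are uncertain. The table also listed 75 pseudogenes named after 34 members, of which 29 had no count. Their counts exceeded 5% of those of the parent only for MRPL45 (9.98%) and MRPS31 (7.73%).

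Members and other genes can also share a start. Within 1000 bases of 21 members another gene began on the opposite strand and ran away from it, and 17 of these partners were protein-coding. MRPL46 and MRPS11, of the large and the small subunit, began 34 bases apart. NDUFS6 and NDUFB5, which encode subunits of complex I, began 34 bases from MRPL36 and 36 bases from MRPL47.

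The summed level of the members was above that of the batch controls in the mean of each treatment. Summed over the 79 members, the control libraries held 5207, 5135, 4839 and 4642 CPM (counts scaled to library size), a mean of 4956 ± 263 (SD, n = 4). The batch 1 controls were above those of batch 2, and each treatment was therefore set against the controls of its own batch. The sum was 9.22% above these after ND1 silencing, 8.10% after COX2, 7.97% after ATP8, 6.08% after CYTB and 5.94% after COX3. It was 5.73% above after ND2, 4.12% after ATP6, 3.71% after COX1, 3.13% after ND4L, 1.92% after ND3 and 0.518% after ND5. After ND1 silencing the 4 libraries held 5119 to 5639 CPM, and each exceeded both controls of its batch. The same was true of CYTB, COX3 and ATP8 (4 of 4) and of ND2 and COX2 (3 of 3). It held for 3 of 4 libraries of ND3, ND4L and ATP6 and for 2 of 4 of ND5 and COX1. Below both controls of their batch were ND3 replicate 2 (4959 CPM), ND4L replicate 1 (5110), ND5 replicate 1 (5013) and COX1 replicate 1 (5096). All of these are of batch 1. No treated library was below all 4 controls, which include the lower ones of batch 2. In RNA from whole cultures, fewer cells of a type and less RNA per cell cannot be told apart, and CPM gives only a gene's share of the library.

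**Figure D1:**
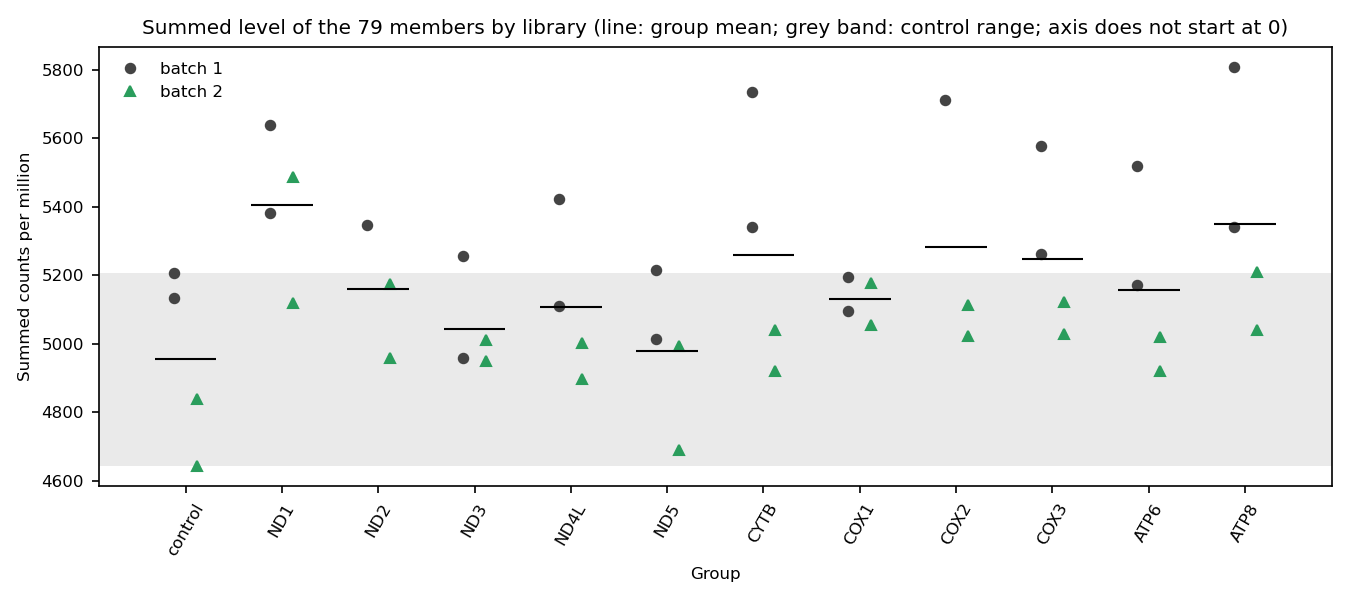
Summed CPM of the 79 members in each library by group (circles, batch 1; triangles, batch 2; line, group mean; grey band, range of the controls; the axis does not start at 0). Control libraries lie between 4642 and 5207, ND1 libraries between 5119 and 5639, and the mean of batch 1 is above that of batch 2 in all 12 groups.

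The large and small subunits had similar shifts, and the difference between them was not tested. The ratio of the summed CPM of the large to the small subunit was 1.51 ± 0.0131 in the control (SD, n = 4) and had means of 1.51 to 1.54 in the treatments. Median log2 fold changes of the large and small subunit were both 0.13 after ND1 silencing, 0.11 and 0.10 after COX2, 0.11 and 0.10 after ATP8, and 0.09 and 0.06 after COX3. They were 0.06 and 0.07 after CYTB, 0.06 and 0.07 after ND2, 0.06 and 0.05 after ATP6, and 0.04 for both after COX1 and after ND4L. After ND3 they were 0.02 and 0.01, and after ND5 0.00 in both. The median of all genes tested lay within 0.01 of 0 in every treatment. The members are short (median 2539 bases, against 5008 for protein-coding genes tested). When each library was freed of its trend with gene length, the median over all 79 members fell from 0.13 to 0.09 after ND1, from 0.04 to 0.01 after ND4L, from 0.04 to 0.02 after COX1, from 0.05 to 0.03 after ATP6 and from 0.06 to 0.04 in the mean of the treatments. After ND4L the members with a positive fold change went from 53 to 43, and those at an unadjusted p under 0.05 from 13 higher and 2 lower to 8 higher and 5 lower.

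These shifts were small for single members, and few passed the test. The treatments share the same 4 control libraries, so their results are not independent of each other. Counts were compared by edgeR's quasi-likelihood test with a batch term, with Benjamini-Hochberg adjustment over all 20272 genes, and a gene was called at an adjusted p under 0.05. After CYTB silencing 2 members were called, MRPL24 and MRPS16, both higher, where 0.548% of all genes were called. After ATP8 silencing MRPL24 was called and was higher, against 0.0641% of all genes. No member was called after ND1 (0.0888% of all genes), ND2 (0.0247%), ND3 (0.00987%), ND4L (0.148%), ND5 (0.158%), COX1 (0.0543%), COX2 (0.469%), COX3 (0.306%) or ATP6 (0.00987%). DESeq2 called 22 member tests, all higher: 6 after ND1, where it called 1.42% of all genes to which it gave an adjusted p, 5 after CYTB (2.60% of all genes), 5 after COX2 (2.41%), 2 after ND4L (3.13%), 2 after ATP8 (0.588%), 1 after COX1 (0.221%) and 1 after COX3 (1.22%). It called 0 members after ND2 (0.0247%), ND3 (0.0148%), ND5 (0.629%) and ATP6 (0.167%). The lowest adjusted p of a member was 0.0741 after ND1, that of MRPS21 in the edgeR test.

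At an unadjusted p under 0.05, members stood mainly on the higher side. After ND1 silencing 32 of the 79 (40.5%) were higher, where 6.47% of all genes were, and 0 were lower, where 5.24% were. The counts of higher members were 26 after ATP8 (32.9% against 6.21% of all genes), 25 after CYTB (31.6% against 7.66%), 23 after COX2 (29.1% against 7.42%) and 21 after COX3 (26.6% against 5.65%), each with 0 lower members where 4.02%, 6.01%, 6.16% and 4.74% of all genes were lower. ND4L silencing had 13 higher members (16.5% against 7.11%) and 2 lower ones (2.53% against 6.99%), which were MRPL19 and MRPL42. In each of these 6 treatments more members were higher than lower. After ATP6 9 members were higher (11.4% against 5.39%), after COX1 8 (10.1% against 4.58%) and after ND2 7 (8.86% against 2.34%), with 0 lower where 3.69%, 2.86% and 2.57% of all genes were. After ND5 4 members were higher (5.06% against 4.78%) and 2 lower (2.53% against 4.53%), which were MRPL4 and MRPS27, and after ND3 0 were higher or lower, where 1.62% and 1.69% of all genes were. The shares after ND5 and ND3 were near or below the background.

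Regardless of the test, 75 of the 79 members had a positive fold change after ND1, 73 after ATP8, 70 after COX3, 69 after ND2 and 66 after COX2. The number was 60 after CYTB, 59 after ATP6, 56 after COX1, 53 after ND4L, 52 after ND3 and 39 after ND5. By member, 23 were above the control in all 11 treatments and 0 were below it in all 11. The share of all genes was not computed for these counts of sign, and the 11 comparisons share the same 4 control libraries.

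**Figure D2:**
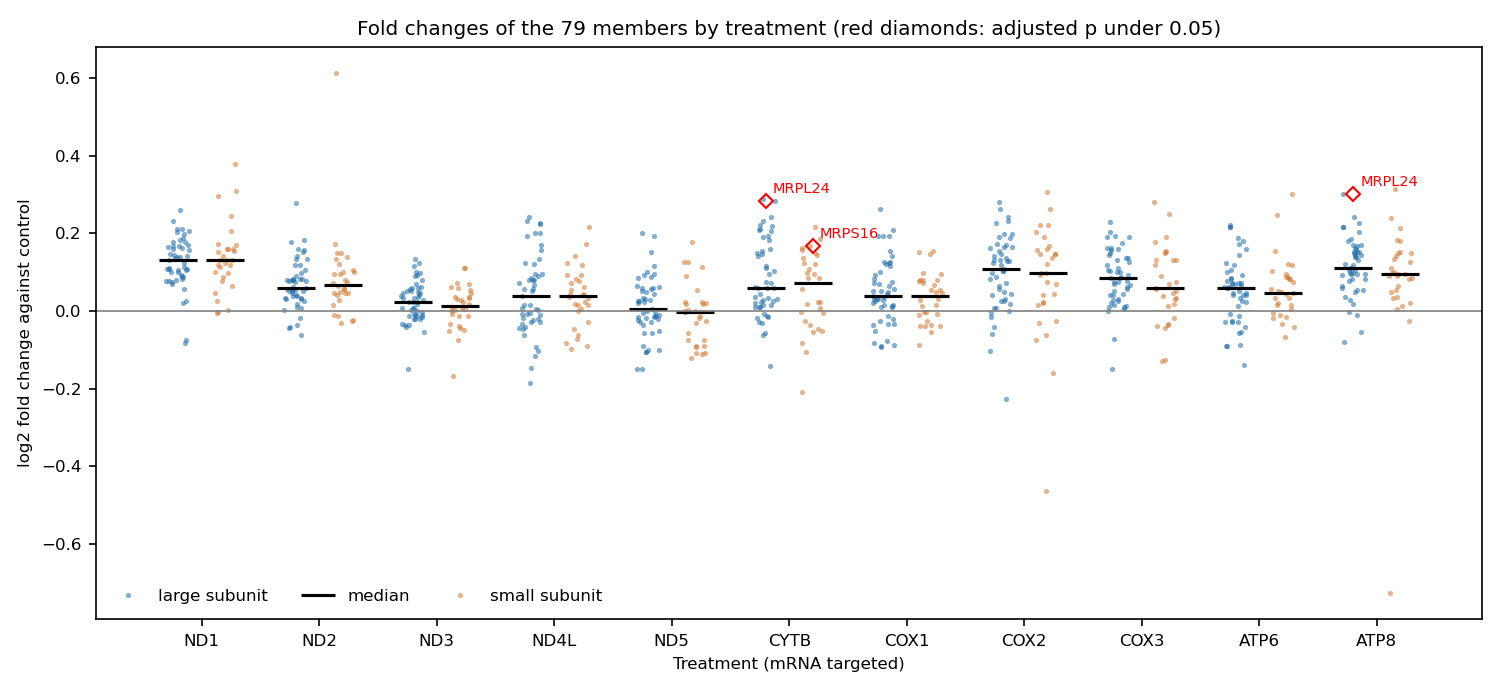
Log2 fold change of each member against the control by treatment (blue, large subunit; orange, small subunit; black line, median). Red diamonds mark the members called by edgeR, MRPL24 and MRPS16 after CYTB and MRPL24 after ATP8; medians run from 0.00 after ND5 to 0.13 after ND1, and the outlying orange points after ND2, COX2 and ATP8 are MRPS24.

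MRPL24 (ENSG00000143314, chr1:156737303-156741590, minus strand) encodes a large-subunit protein of bacterial type that sits near the exit of the peptide tunnel. Its 4 control libraries held 66.1, 64.0, 64.2 and 65.2 CPM. The ATP8 libraries held 78.5, 77.6, 81.1 and 82.5 CPM, all above the highest control. The CYTB libraries held 86.4, 71.3, 81.6 and 76.6 CPM, also all above the controls and with a wider spread. The log2 fold change was 0.30 after ATP8 (SE 0.0629, adjusted p = 0.0302) and 0.28 after CYTB (SE 0.0629, adjusted p = 0.0217, edgeR's quasi-likelihood test). The other treatments gave values between 0.06 (ND3) and 0.26 (COX1) that edgeR did not call, of which DESeq2 called those after ND1, ND4L, COX1 and COX2. The edgeR call after ATP8 was lost in each of the 8 fits without 1 of its own or the control libraries (adjusted p 0.0583 to 0.188), and that after CYTB in 3 of 8, without control replicate 3 or 4 or CYTB replicate 1 (adjusted p 0.105, 0.108 and 0.205). Over all treatments 41 of 42 treated libraries were above every control library, and ND3 replicate 2 (62.5 CPM) was below them all. All 42 are set against the same 4 controls. Of the 79 members 4 had 30 or more treated libraries above every control, MRPL24 and MRPS16 among them. Of all 20272 genes tested 1.81% did, and 1.84% had 30 or more below every control, where 0 members did.

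MRPS16 (ENSG00000182180, chr10:73248843-73252693, minus strand) encodes a bacterial-type protein of the small subunit and was the least variable member, with an SD of 0.0375 on the log2 scale within treatment and batch. Its control libraries held 138, 134, 129 and 129 CPM. The CYTB libraries held 151, 151, 148 and 146 CPM, with no overlap. The log2 fold change was 0.17 (SE 0.0418, adjusted p = 0.0418, edgeR's quasi-likelihood test). Of the 42 treated libraries 36 exceeded every control, and 30 or more did so for 1.81% of all genes tested. The edgeR call after CYTB was lost in 6 of the 8 fits without 1 library, those without control replicate 2, 3 or 4 or CYTB replicate 1, 2 or 4 (adjusted p 0.0617 to 0.219). DESeq2 called MRPS16 after CYTB and also after ND1, COX2 and ATP8.

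In the mean of the 11 treatments against the control, MRPL24 was the only member called by edgeR's quasi-likelihood test (log2 fold change 0.22, SE 0.0476, adjusted p = 0.0327), where 0.261% of all genes were called. DESeq2 called 4 members, MRPL24, MRPS16, MRPL12 and MRPL14, all higher, where it called 2.08% of all genes to which it gave an adjusted p. At an unadjusted p under 0.05, 22 members (27.8%) were higher, against 6.55% of all genes, and 0 were lower, against 5.37%. In the edgeR test MRPS16 followed at 0.13 (SE 0.0313, adjusted p = 0.0564), MRPL12 at 0.20 (SE 0.0541, adjusted p = 0.0714) and MRPL14 at 0.20 (SE 0.0566, adjusted p = 0.103). For MRPL14 after CYTB silencing the libraries held 141, 113, 98.4 and 100 CPM, of which 2 exceeded the highest control (102 CPM). Each exceeded both controls of its batch, which held 102 and 97.05 CPM in batch 1 and 89.03 and 82.01 CPM in batch 2. MRPL53, a stalk protein, had the lowest mean fold change of the members, -0.08 (adjusted p = 0.755).

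**Figure D3:**
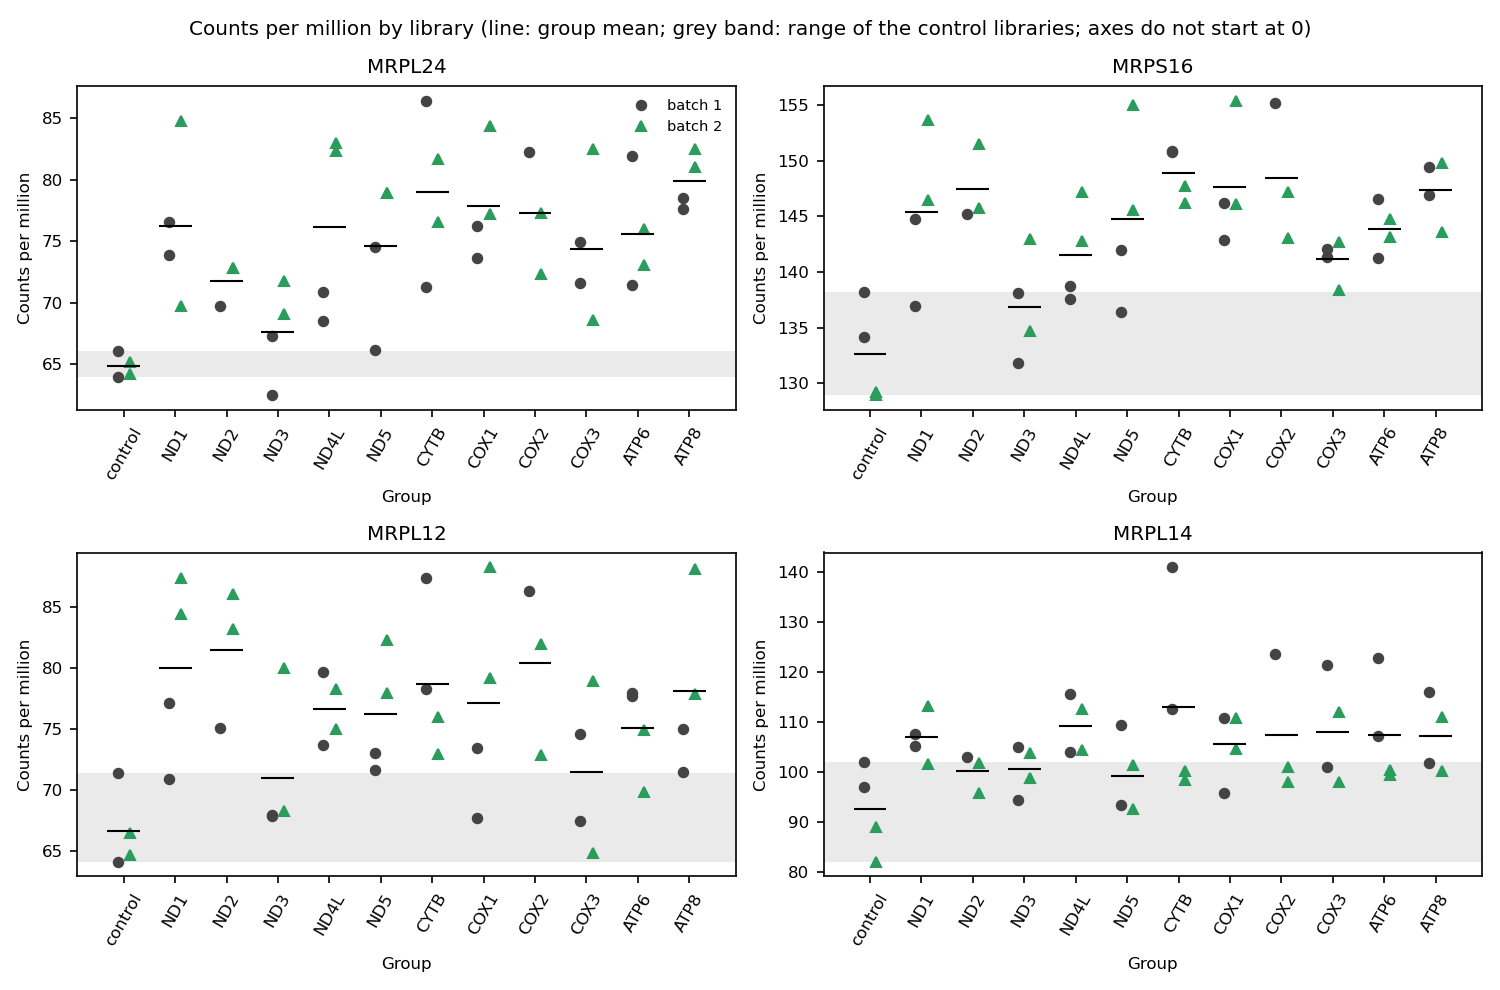
CPM of MRPL24, MRPS16, MRPL12 and MRPL14 in each library by group (circles, batch 1; triangles, batch 2; line, group mean; grey band, range of the controls; axes do not start at 0). The MRPL24 controls lie between 64.0 and 66.1 CPM with 41 of 42 treated libraries above them, whereas 23 of 42 treated libraries exceed all controls for MRPL14. Of all genes tested, 1.81% have 30 or more treated libraries above all controls. Set against both controls of their own batch, 41 of 42 treated libraries are above for MRPL24 and 37 of 42 for MRPL14.

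The calls depended on the fit. The share of all genes called was not computed for the fits that follow. With the replicate number as a block in place of the batch, 5 member tests were called in place of 3, the added ones being MRPS21 after ND1 (log2 fold change 0.24, adjusted p = 0.0337) and MRPL14 after CYTB (0.29, adjusted p = 0.0396), and MRPS16 was also called in the mean of the treatments (adjusted p = 0.0375). Without control replicate 3, or without control replicate 4, 0 member tests were called in the edgeR fit, and without any single control library the mean of the treatments had 0.

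The L7/L12 stalk, which recruits translation factors, has 5 listed members (MRPL10, MRPL11, MRPL12, MRPL53 and MRPL54). In the mean of the treatments 2 of them, MRPL11 and MRPL12, were higher at an unadjusted p under 0.05, and 0 were called by edgeR. At that unadjusted cut 27.8% of all 79 members and 6.55% of all genes were higher. The median of the 5 was 0.13, against 0.06 for all members of the large subunit. MRPL12, the stalk protein itself, held 71.3, 64.1, 64.6 and 66.4 CPM in the control and 70.9, 77.1, 84.4 and 87.4 CPM after ND1 silencing, so that 1 ND1 library fell within the control range (log2 fold change 0.26, SE 0.0715, adjusted p = 0.103 in the edgeR test). MRPL53 of the same stalk was above the control in 1 of the 11 treatments, and none of its values was called. Of the 6 members at the tunnel exit, which include MRPL24 and the membrane anchor MRPL45, 2 were higher at an unadjusted p under 0.05 in the mean, MRPL24 being called, and the median was 0.06. Of the 9 members of the central protuberance, 1 was higher and the median was 0.06.

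In the mean of the treatments, DAP3, a GTP-binding protein of the small subunit, had a log2 fold change of 0.08 (SE 0.0332, adjusted p = 0.258 in the edgeR test) and was above the control in all 11 treatments. MRPL58, a peptidyl-tRNA hydrolase built into the large subunit, stood at 0.06, MRPL45 at 0.04, MRPL44, an RNase III-like protein, at 0.01, and MRPS12, a protein of the decoding centre, at 0.03. MRPS22, a small-subunit protein specific to mitochondria, stood at 0.11 and MRPL11 at 0.14. None of these was called in the mean. DESeq2 called DAP3 after COX3 silencing (log2 fold change 0.15, adjusted p = 0.0453), where edgeR did not.

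The 3 paralogues of bacterial S18 stood above the control in the mean, at 0.12 for MRPS18A, 0.09 for MRPS18B and 0.13 for MRPS18C. At an unadjusted p under 0.05 all 3 were higher after COX2 and after ATP8, 2 after ND1 and COX3, and 1 after ND4L. In these 5 treatments, in this order, 29.1%, 32.9%, 40.5%, 26.6% and 16.5% of all 79 members were higher. The shares of all genes were 7.42%, 6.21%, 6.47%, 5.65% and 7.11%. Of the 3 paralogues 0 were higher after ND2, ND3, ND5, CYTB, COX1 and ATP6, where 1.62% to 7.66% of all genes were. After COX2, MRPS18C held 25.84, 17.99 and 16.65 CPM, against 13.21 to 18.56 CPM in the control. Of the other members whose symbol departs from the structure, MRPS30 stood at -0.03 and MRPS36 at -0.04, and neither was called. Of the 46 members with a bacterial counterpart 12 were higher at an unadjusted p under 0.05 in the mean (median 0.06). Of the 32 members specific to mitochondria 10 were (median 0.06). At the same cut 27.8% of all 79 members and 6.55% of all genes were higher.

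The ends of the range differed between treatments. Among large-subunit members, MRPL24 had the highest log2 fold change after ND5 (0.20), COX1 (0.26), ATP6 (0.22) and ATP8 (0.30), MRPL14 after ND4L (0.24), CYTB (0.29) and COX3 (0.23), MRPL12 after ND1 (0.26) and ND2 (0.28), MRPL2 after COX2 (0.28) and MRPL47 after ND3 (0.13). The lowest was MRPL53 after ND2 (-0.06), CYTB (-0.14), COX2 (-0.23) and COX3 (-0.15), MRPL23 after ND3 (-0.15), ATP6 (-0.14) and ATP8 (-0.08), MRPL38 after ND1 (-0.08), MRPL42 after ND4L (-0.18), MRPL4 after ND5 (-0.15) and MRPL50 after COX1 (-0.09). A few members thus recurred at each end, in comparisons that share their controls.
Among small-subunit members, the highest was MRPS24 after ND1 (0.38), ND2 (0.61) and ATP6 (0.30), MRPS18C after COX2 (0.31) and ATP8 (0.31), MRPS28 after ND5 (0.18) and COX3 (0.28), MRPS26 after ND3 (0.11) and ND4L (0.22), MRPS33 after CYTB (0.22) and MRPS16 after COX1 (0.15). The lowest was MRPS24 after CYTB (-0.21), COX2 (-0.46), COX3 (-0.13) and ATP8 (-0.73), MRPS36 after ND2 (-0.03), ND3 (-0.17) and COX1 (-0.09), MRPS27 after ND1 (-0.01), MRPS31 after ND4L (-0.10), MRPS2 after ND5 (-0.12) and MRPS6 after ATP6 (-0.07). MRPS24 appears at both ends with standard errors of 0.336 to 0.395 at these values, and of the values at the ends of the range only that of MRPL24 after ATP8 was called by edgeR. DESeq2 called in addition MRPL12 after ND1, MRPS26 after ND4L, MRPL14 after CYTB, MRPL24 after COX1 and MRPL2 after COX2.

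The treatments were also compared with each other, without the control. By edgeR's F test over the 11 treatments 0 of the 79 members were called, where 0.306% of all genes were. At an unadjusted p under 0.05, 19 of the 79 members passed, a larger share than the 2030 of 20272 genes tested (10.0%). DESeq2 called 2, MRPL3 and MRPS18C, where it called 1.94% of all genes to which it gave an adjusted p. The lowest adjusted p was that of MRPL3, a bacterial-type protein of the large subunit (0.102). Its fold changes ran from -0.05 after ND4L to 0.18 after ND1. MRPS18C followed (adjusted p = 0.171 in the edgeR test), with fold changes from -0.08 to 0.31.

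More members were called between the batches than in any treatment. These numbers do not compare the size of the shifts, as the batches hold 22 and 24 libraries and each treatment 3 or 4. The median log2 fold change over all 79 members was -0.11 between the batches and 0.13 after ND1 silencing. In batch 2, 55 of the 79 members (69.6%) were lower and 5 (6.33%) higher than in batch 1 at an adjusted p under 0.05 (edgeR's quasi-likelihood test), where 27.9% of all genes were lower and 29.2% higher. The median log2 difference was -0.11 for the large and -0.09 for the small subunit, and 0.01 for all genes tested. MRPL45, which anchors the ribosome to the inner membrane, held 61.2 to 73.3 CPM in the 22 libraries of batch 1 (median 66.5) and 47.8 to 60.4 CPM in the 24 of batch 2 (median 54.2), with no overlap (log2 difference -0.29, SE 0.0229, adjusted p = 6.53e-16). MRPS25, specific to mitochondria, went the other way without overlap, from 85.0 to 99.7 CPM in batch 1 to 101 to 116 CPM in batch 2 (log2 difference 0.20, SE 0.0189, adjusted p = 3.66e-13). These were the 2 members without overlap (2.53%, against 1.74% of all genes tested). MRPL38 had the highest difference, 0.53 (SE 0.0585, adjusted p = 3.77e-11), from a median of 4.64 to 6.84 CPM, with overlap. The other higher members were MRPS17 (0.13), MRPS34 (0.08) and MRPL24 (0.06). Once libraries were corrected for GC content, MRPS34 turned to -0.05 (adjusted p = 0.0144). Day, reagents and everything else that changed between the batches cannot be told apart.

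**Figure D4:**
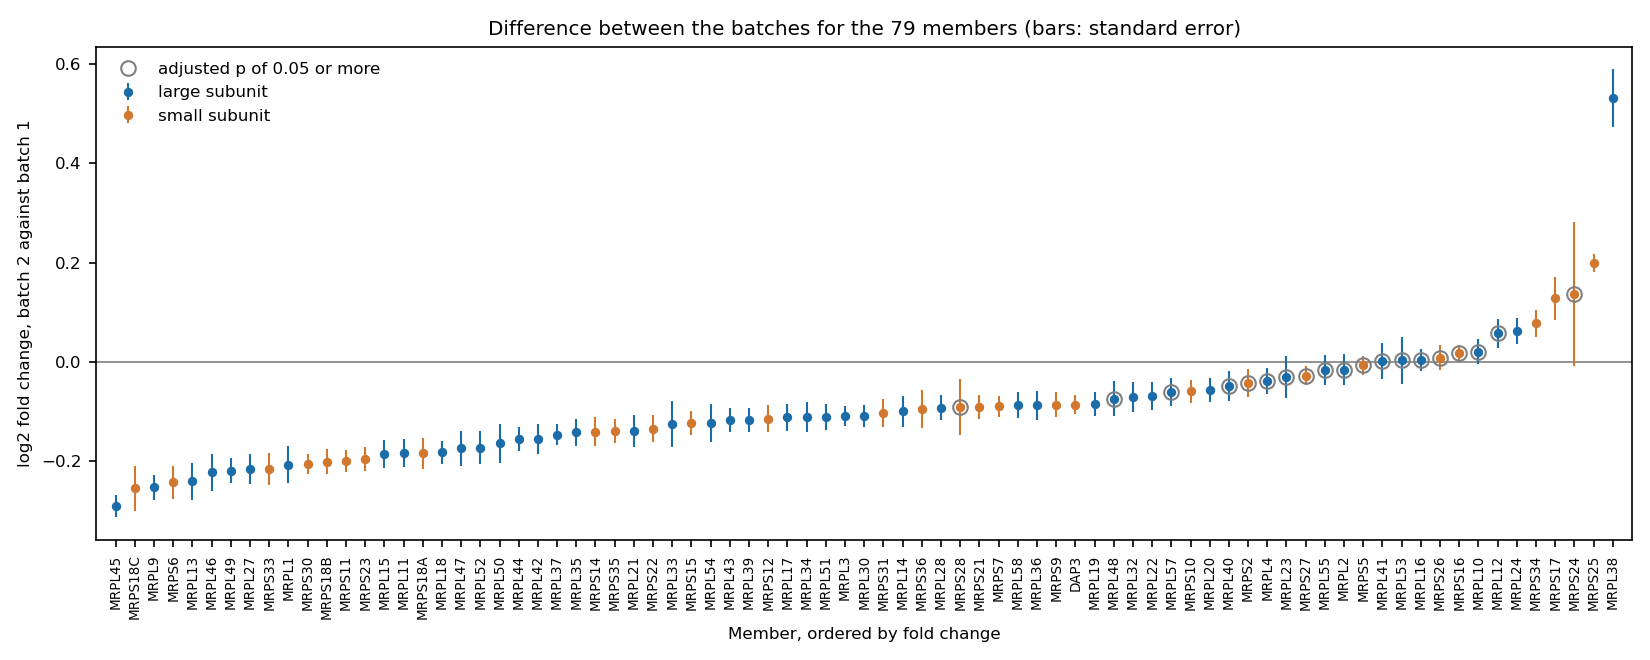
Log2 difference of each member between batch 2 and batch 1, in order of size (bars, standard error; blue, large subunit; orange, small subunit; grey rings, members not called). Of the 79 members 55 are lower and 5 higher in batch 2, and MRPL38 stands apart at 0.53.

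Each treatment was also set against the controls within a single batch. For ND1 the median of the large subunit was 0.11 in batch 1 and 0.17 in batch 2, and that of the small subunit 0.08 and 0.18. For ATP8 they were 0.13 and 0.10 for the large and 0.09 and 0.11 for the small subunit. For COX1 the medians of the large and small subunit were -0.03 and -0.02 in batch 1, and 0.11 and 0.07 in batch 2. The median over all members also changed sign after ND3, from -0.01 in batch 1 (35 of 79 positive) to 0.07 in batch 2 (58 positive), and after ND5, from -0.03 (33 positive) to 0.02 (44 positive). A test of the treatment effect between batches (interaction terms in the edgeR model) called 0 members in each treatment with 2 libraries in both batches. The same test called 0 of all 20272 genes in each of these treatments, so the 0 members do not show that the batches behaved alike. Between 1 and 14 members had an unadjusted p under 0.05, the 14 being after ND3. The share of all genes at that cut was not computed.

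When the mean of each treatment within each batch was removed from the 46 libraries, 22 degrees of freedom were left. In what remained, the mean pairwise correlation of log2 CPM was 0.28 among large-subunit members, 0.16 among small-subunit members and 0.22 between the subunits. The points share library depth and composition, and this is a description. MRPL21 had the highest mean correlation with the other members (0.43) and MRPS25 the lowest (-0.10). The median SD of a member within treatment and batch was 0.0938 on the log2 scale, against 0.0966 for 8917 genes of similar level.

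Genes that act with the members gave the following counts. AURKAIP1, CHCHD1, GADD45GIP1 and PTCD3 encode ribosomal proteins under other names. By edgeR none was called in the mean of the treatments, 1 of 4 was higher at an unadjusted p under 0.05, and their median log2 fold change was 0.11. Of 26 factors that assemble the mitochondrial ribosome 1 was higher and 2 were lower (median 0.04). Of 15 mitochondrial translation factors 2 were higher and 0 lower (median 0.03). None in either list was called by edgeR. At the unadjusted cut 6.55% of all genes were higher and 5.37% lower in the mean, and lists this short give no precise share. Among 9 regulators of mitochondrial biogenesis the median was -0.03. The one edgeR call in these lists in any treatment was ESRRA, which encodes the nuclear receptor ERRα, after CYTB silencing (log2 fold change 0.33, SE 0.0819, adjusted p = 0.0396 in the edgeR test).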

How the data were processed

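Poly(A) RNA of 46 libraries was sequenced on a NovaSeq X Plus. The authors deposited raw counts of reads per gene with a gene length in bases (used for RPKM and the length trend), on GRCh38.p12; the aligner, the counter and the use of strand are not given in the sources used here, so overlapping and antisense genes can share reads. The submitters' processing notes name R 4.3.0, DESeq2 1.40.2 and limma 3.56.2. The deposited counts were tested here in R 4.3.3 with edgeR 4.0.16 (TMM, quasi-likelihood test, terms for group and batch, filterByExpr minimum count of 10); DESeq2 1.42.0 was an alternative, with RLE, nuclear-gene library sizes, other filters, other batch terms, length and GC trends, single batches, paired groups and left-out libraries. CPM and RPKM use TMM library sizes; log2 CPM has a prior count of 2. The members, gene lists and naming rule (members called, ends of the range, 5 highest and 5 lowest levels, members of known role, called genes of other lists) were chosen with earlier results of these data known. Chi-square over degrees of freedom was 3.31 to 24.5 in the 66 replicate pairs, so none was counted as 1 library. Same-numbered control and treatment libraries deviated together (r = 0.23 to 0.71 in all 42 pairs; with batch means removed, both pairs of a treatment and batch have the same r, and 11 of the 20 values exceeded 0.1). The code was tested on simulated data. The cell line label was not checked against markers.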

Additional observations from a re-analysis of the deposited data

Results flagged for a closer look

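Of 90 groups of 4 libraries examined for a library far from the other 3, 3 held such a library; chance gives about 1 in 20. In ND5 replicate 2 the ratio of the summed CPM of the large to the small subunit was 1.601, against 1.52 to 1.53 in the other 3. MRPL12 stood at 79.98 CPM in ND3 replicate 4, against 67.8 to 68.2 CPM. MRPL45 stood at 53.6 CPM in control replicate 4, against 60.4 to 61.6 CPM in the other controls; this last library belongs to batch 2, and so does control replicate 3.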

How the results depend on the processing

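Over the alternatives, 0 to 29 member tests were called in place of 3. The share of all genes called was computed only for the main fit and for DESeq2. For the other fits, a change in the member count cannot be told apart from a change over all genes. With no filter 47354 genes were tested in place of 20272. The count was 29 with no filter on low counts, 24 with only the compared libraries in the fit, 22 with DESeq2, 9 with a trend on GC content removed (an alternative chosen after seeing the data), 5 with the replicate block in place of the batch, and 0 with no batch term or in batch 1 alone; leaving out 1 library gave 0 to 7, with 1 without control replicate 2 or CYTB replicate 1, 6 without control replicate 1 and 7 without COX2 replicate 4. In place of 1, the mean of the treatments had 4 (no filter, DESeq2), 2 (stricter filter, replicate block, GC trend) or 0 (no batch term), and 0 to 3 with 1 library left out, 3 without COX1 replicate 1. Among the treatments, in place of 0, there were 7 with no filter, 2 with DESeq2 and 1 with the GC trend, and 0 in each fit without 1 library. Between batches the count was 55 to 68 in place of 60, and 55 to 62 with 1 library left out. The added members were higher than the control in each case; the cause was not tested.

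MRPL24 kept a positive fold change in each fit (0.22 to 0.34 after CYTB or ATP8), but lost its call with no batch term and in either batch alone. After ATP8 it lost the call without any single library of either group (adjusted p 0.0583 to 0.188), and after CYTB without control replicate 3 or 4 or CYTB replicate 1. MRPS16 lost it with no filter, no batch term, the length trend and single batches, and in 6 of 8 fits without 1 library. MRPS34 between batches reversed to -0.049 with the GC trend.

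Medians moved by more than the spread between replicates for COX2 in batch 1 alone (0.16, large subunit), COX1 in batch 1 alone (-0.023, small) and COX3 in batch 2 alone (0.11, small). With 1 library left out the medians of the large subunit ran over 0.02 to 0.07 for ATP6, 0.07 to 0.14 for ATP8, 0.02 to 0.06 for COX1, 0.07 to 0.13 for COX2, 0.07 to 0.11 for COX3, 0.03 to 0.09 for CYTB, 0.10 to 0.16 for ND1, 0.04 to 0.08 for ND2, 0.01 to 0.06 for ND3, 0.02 to 0.05 for ND4L and -0.01 to 0.03 for ND5; those of the small subunit over 0.03 to 0.06 for ATP6, 0.07 to 0.12 for ATP8, 0.01 to 0.05 for COX1, 0.060 to 0.13 for COX2 (lowest without COX2 replicate 2), 0.05 to 0.09 for COX3, 0.015 to 0.086 for CYTB (lowest without CYTB replicate 1), 0.10 to 0.15 for ND1, 0.05 to 0.08 for ND2, 0.00 to 0.04 for ND3, 0.02 to 0.05 for ND4L and -0.04 to 0.00 for ND5. RLE or nuclear-gene scaling moved the median of all genes by at most 0.00697. In batch 1 alone COX2 and ND2 have 1 library, assumed to vary like the other groups. MRPS24, at 8 to 76 counts, is limited by depth.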
